A study of Mus musculus with 8 samples.

Results

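In RNA from adult mouse testis, 10 genes that encode or assist the accessory structures of the sperm tail were examined: Odf1, Odf2, Odf3 and Odf4 of the outer dense fibres, Akap3, Akap4, Fscb, Ropn1 and Ropn1l of the fibrous sheath, and Spem1, which acts while the spermatid is reshaped. They were taken by symbol from a list of such genes, and all 10 were found among the 24988 genes of the deposited table and passed the filter on low values. Whole adult testis was sequenced in 8 libraries, 4 labelled Kpna2 knockout (genotype Kpna2-/-) and 4 labelled wild-type (WT). The labels name no other allele or treatment, give neither strain nor age in numbers, do not describe how the Kpna2 allele was made or in which cells it acts, and leave unsaid if each library is a separate animal, so p-values measure the spread between libraries, which may be technical. Kpna2 encodes an importin alpha, an adaptor for the import of proteins into the nucleus, and the comparison asked which testis genes are expressed differently without it.

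The sperm tail has a microtubule core, the axoneme, which drives its beat. Outer dense fibres run along the axoneme and make the tail stiff and elastic, and in the principal piece a fibrous sheath of columns and ribs surrounds them, holding protein kinase A and enzymes of glycolysis. Both are assembled in spermatids, the germ cells that have completed meiosis, and mice that lack Akap4, Odf1 or Spem1 are known to have male infertility with defects of the tail or of its link to the head.

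Libraries held 31133443 to 37797812 reads assigned to genes. Values are given in CPM (a gene's reads relative to the size of its library) as the authors deposited them, and log2 fold changes, knockout label over wild-type label, are on the scale of log2(CPM + 0.5). Kpna2 itself was not lower under the knockout label: it stood at 15.3 to 21.7 CPM in the libraries labelled knockout, against 12.4 to 15.1 CPM in those labelled wild-type, so every direction below is that of the labels. Its log2 fold change was 0.44 with a limma adjusted p of 0.0079. The table does not resolve exons, so it cannot show if any part of the Kpna2 transcript is missing. The cause of its higher value was not tested. Of all 22027 genes tested, 16.9% were called at a limma adjusted p under 0.05 (8.62% higher and 8.32% lower under the knockout label), and 20.9% had groups that did not overlap. Germ cell markers were abundant in all 8 libraries: 7 genes of elongating spermatids, such as the protamines Prm1 and Prm2, summed to between 16452 and 22282 CPM in the libraries labelled knockout and between 19277 and 20526 CPM in those labelled wild-type, and none of the 7 was called. None of 6 round spermatid markers was called either. Of the markers of pachytene spermatocytes 1 of 6 fell (Sycp1, 16.7%), and of spermatogonia 1 of 5 (Dmrt1, 20%), near the 16.9% of all tested genes. The log2 fold changes of Sycp1 and Dmrt1 were -0.30 and -0.25, and the groups overlapped for both. Log2 fold changes were above 0 for 2 of the 6 pachytene and 3 of the 5 spermatogonial markers. Of the somatic markers, 3 of 3 of peritubular myoid cells fell (summed 40.7 to 55.9 CPM under the knockout label and 61.6 to 83.6 CPM under the wild-type label). For Leydig cells 3 of 5 fell and 1 rose, Hsd3b1, at a log2 fold change of 1.87. The 5 summed to 629 to 1047 and 976 to 1168 CPM under the knockout and wild-type labels. For Sertoli cells 2 of 6 fell, with sums of 139 to 166 and 170 to 181 CPM under the same labels. None of 3 macrophage markers was called. The part of these markers in the results below was not tested. In whole testis, fewer cells of a type and less RNA per cell cannot be told apart.

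The start sites of 9 of the 10 genes were in the RefSeq table of promoters for GRCm38.p6, and those of the fibrous sheath genes Akap3, Akap4 and Fscb are shown for letters they share. Each held the octamer TGATGTCA, a spelling close to the cAMP response element TGACGTCA, through which the spermatid activator CREM is known to act. The fibrous sheath genes Ropn1 and Ropn1l did not hold it, nor did the window of a further start of Akap4. The octamer was picked after these sequences had been read, and is shown in capitals in 100 bases before and 20 bases from each start.
Akap3 (chr6:126852998-126853117, plus strand): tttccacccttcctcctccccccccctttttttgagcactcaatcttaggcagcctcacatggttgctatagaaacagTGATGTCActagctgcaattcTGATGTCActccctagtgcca
Akap4 (chrX:7067415-7067534, plus strand): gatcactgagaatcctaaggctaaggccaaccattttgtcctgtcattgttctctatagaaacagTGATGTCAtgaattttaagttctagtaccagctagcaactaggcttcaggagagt
Fscb (chr12:64474879-64474998, minus strand): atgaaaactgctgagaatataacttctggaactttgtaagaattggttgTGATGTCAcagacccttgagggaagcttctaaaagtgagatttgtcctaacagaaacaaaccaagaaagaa
Akap3 and Akap4 shared a run of 20 identical bases, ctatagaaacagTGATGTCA, which began 34 bases before the start of Akap3 and 47 bases before that of Akap4, although the genes lie on different chromosomes. No other windows of different genes among the 10 shared more than 14 bases. The RefSeq start of Fscb lies upstream of its start in GENCODE, which gave the gene positions below. In Akap3 the octamer began 22 bases before the start and again 1 base before it, in Akap4 35 bases and in Fscb 51 bases before it. On either strand TGATGTCA was in 3.62% of all 32851 windows of 300 bases (250 before and 50 after a start). Among the 13 windows of the 9 genes it was in 3, which belonged to 3 genes. The cAMP response element TGACGTCA itself (1.79% of all windows) and the TATA box TATAAA (13.6%) were in none of the 9 genes' windows. The letters TGACG, which TGACGTCA contains, were in 2 of the 13 windows, both of Odf2 (20.8% of all windows). GTTGCC, part of the X-box that RFX factors bind, was in 3 of the 13 windows, those of Odf3, Ropn1l and Spem1 (12.5% of all windows). These matches are letters in a window and not sites shown to be bound.

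The 10 genes were among the 1104 of highest mean CPM of the 22027 tested, and their means stood in the same order of level per length under either label. Per kilobase of merged exons, Odf1 was highest with 1271 ± 32.8 CPM per kb in the libraries labelled knockout and 1268 ± 63.1 CPM per kb in those labelled wild-type (SD, n = 4 each). Ropn1l followed with 1035 ± 38.2 and 1037 ± 19.9 CPM per kb under the knockout and wild-type labels, and Akap4 with 628 ± 23.7 and 608 ± 19.6 CPM per kb. Spem1 and Odf2 overlapped over the 8 libraries, at 459 ± 44.4 and 430.3 ± 30.2 CPM per kb under the knockout label against 517 ± 26.8 and 429.9 ± 8.80 CPM per kb under the wild-type label. Akap3, Ropn1 and Odf4 came next and did not overlap their neighbours. Fscb and Odf3 were lowest and overlapped each other, at 106 ± 6.50 and 98.9 ± 7.89 CPM per kb under the knockout label, against 95.1 ± 4.70 and 90.9 ± 5.60 CPM per kb under the wild-type label. The places of Odf2, Ropn1 and Odf3 depend on the length used. The merged exons of Odf2 span 9919 bases over 14 coding transcripts, and with the longest of these, 3959 bases, its mean over all 8 libraries was 1078 CPM per kb in place of 430.1. On the same length of the longest coding transcript, Ropn1 stood at 362 CPM per kb, above Akap3 at 309, and Odf3 at 129.8 CPM per kb, above Fscb at 100.3.

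**Figure D1:**
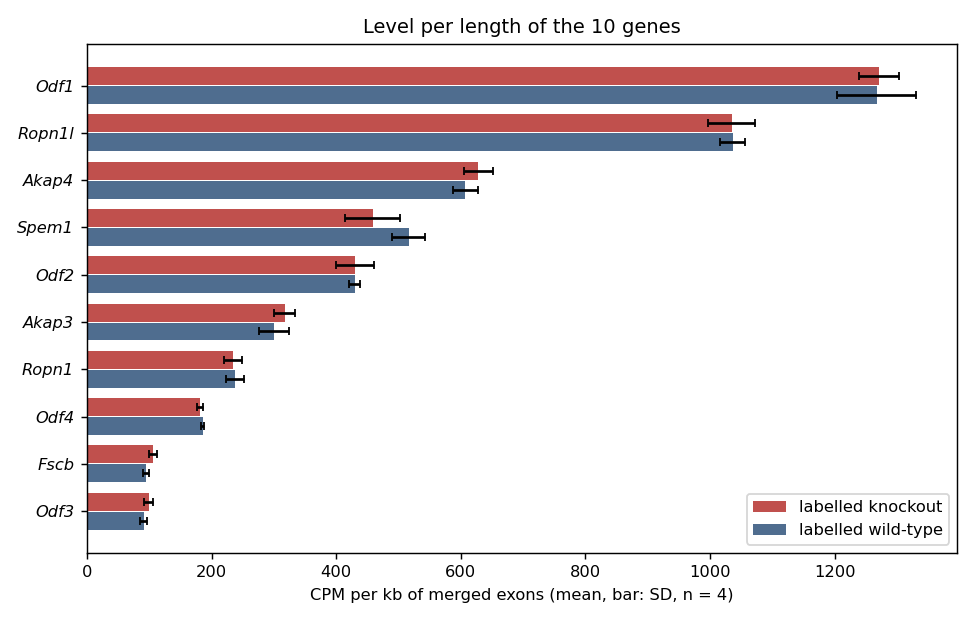
Mean CPM per kilobase of merged exons for each gene (bars, linear axis from 0) with the SD over 4 libraries, labelled knockout above labelled wild-type. Odf1 and Ropn1l lead at over 1000 CPM per kb under either label, and Fscb and Odf3 are near 100 CPM per kb.

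None of the 10 genes was called higher or lower under the knockout label, by limma or by edgeR, where 16.9% and 16.7% of all tested genes were called. DESeq2 called 1 of them, Fscb, higher, and 18% of all tested genes. An unadjusted limma p under 0.05 was found for 2 of the 10 (Fscb and Spem1), against 30.2% of all tested genes. In all 10 genes the groups overlapped, whereas they did not in 20.9% of all tested genes. The log2 fold changes ran between -0.17 (Spem1) and 0.15 (Fscb). They were above 0 for 5 genes and below 0 for 5, of which Odf2 and Ropn1l turned to above 0 with median-ratio scaling. They had a median of 0.0020 against -0.010 over all tested genes. The median size of their log2 fold change was 0.04, against 0.13 over all tested genes and 0.06 over the 1104 that were at least as abundant as Odf3, the member of lowest CPM, of which 11.2% were called. Of these 1104, 262 had an unadjusted limma p under 0.05 and 171 had groups that did not overlap, lower shares than over all tested genes. The 95% intervals of limma for the 10 genes, unadjusted for the number of genes, together spanned 0.804-fold to 1.20-fold. Between 5712 and 158455 reads stood behind each value, and counting error alone was at most 1.32%, below the spread between libraries of a group for each gene.

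**Figure D2:**
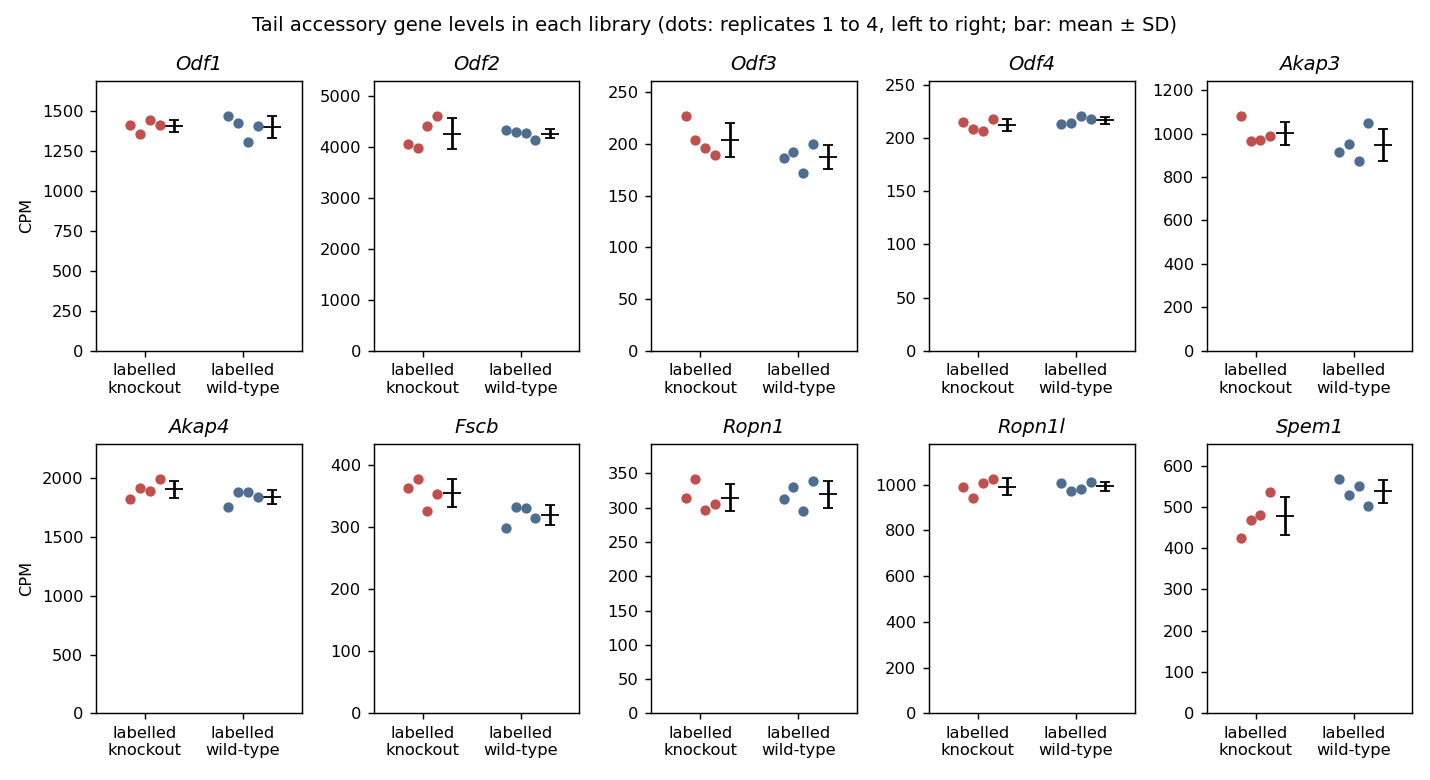
CPM of each gene in each library (dots, replicates 1 to 4 from left to right) with the group mean and SD, labelled knockout left and labelled wild-type right, each axis from 0. The groups overlap in all 10 panels, and Spem1 shows the widest spread relative to its mean, between 424 and 536 CPM under the knockout label.

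Odf1 is a main structural protein of the outer dense fibres, related to small heat shock proteins and also needed for a firm link between head and tail (ENSMUSG00000061923; chromosome 15, 38219203 to 38226735 in GRCm38). It stood at 1412, 1355, 1442 and 1411 CPM in the libraries labelled knockout, against 1467, 1427, 1303 and 1406 CPM in those labelled wild-type. All 4 values under the knockout label lay inside the range of the others. The means were 1405 ± 36.2 CPM under the knockout label and 1401 ± 69.7 CPM under the wild-type label, a log2 fold change of 0.0052 with an SE of 0.05 (limma adjusted p = 0.96). Its interval was 0.933-fold to 1.08-fold.

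Odf2 encodes a coiled-coil protein of the fibres that is also known at the centrosome (ENSMUSG00000026790; chromosome 2, 29889221 to 29931746). With 4059.8, 3978, 4424 and 4611 CPM under the knockout label and 4333, 4300.3, 4288 and 4137 CPM under the wild-type label, it ranked 4th in CPM among all tested genes. Replicates 1 and 2 labelled knockout were below and replicates 3 and 4 above every library labelled wild-type, so that the spread under the knockout label was wide. The means were 4268 ± 299.9 CPM under the knockout label and 4265 ± 87.3 CPM under the wild-type label. The log2 fold change was -0.0012 (limma adjusted p = 0.99), with a sign that turned under other scalings. Of its exon bases, 0.978% overlapped a small RNA gene on the other strand, which the strand setting of the counting, not given in the sources used here, could affect.

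Odf3, also named Shippo1, encodes a repeat protein of the fibres (ENSMUSG00000025482; chromosome 7, 140847805 to 140851018). It stood at 227, 204, 196 and 189.5 CPM under the knockout label and at 186, 192, 172 and 199.7 CPM under the wild-type label. Replicates 1 and 2 labelled knockout were above all of the other group. The log2 fold change of 0.12 had an interval of -0.01 to 0.25 and did not pass the test (limma adjusted p = 0.22). It was 0.07 without replicate 1 labelled knockout and 0.08 without replicate 3 labelled wild-type. Odf4, a membrane protein gene of the developing tail (ENSMUSG00000032921; chromosome 11, 68921835 to 68927081), had 215, 209, 207 and 218 CPM in the libraries labelled knockout, against 213, 214, 220.4 and 218 CPM in those labelled wild-type. It was the steadiest of the 10 relative to its mean under either label, and its log2 fold change was -0.03 (limma adjusted p = 0.70).

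Akap3 and Akap4 encode the anchoring proteins that form much of the sheath and hold protein kinase A there, Akap4 from the X chromosome. Akap4 (ENSMUSG00000050089; 7067519 to 7078609) stood at 1818, 1912, 1887 and 1992 CPM under the knockout label, against 1757, 1881, 1883 and 1836 CPM under the wild-type label. Replicates 2, 3 and 4 labelled knockout exceeded the other group, though by little: the means were 1902 ± 71.9 CPM under the knockout label and 1839 ± 59.2 CPM under the wild-type label. Its log2 fold change was 0.05 (limma adjusted p = 0.55). Akap3 (ENSMUSG00000030344; chromosome 6, 126853098 to 126874308) stood at 1080.3, 967, 969 and 991 CPM under the knockout label, against 915, 950.3, 876 and 1047 CPM under the wild-type label. Its mean was 5.78% higher under the knockout label, where replicate 1 alone exceeded all of the wild-type label, and its log2 fold change of 0.08 did not pass the test (limma adjusted p = 0.39). The ratio of Akap4 to Akap3 per kilobase was 1.75, 2.06, 2.03 and 2.09 in the libraries labelled knockout and 2.00, 2.06, 2.24 and 1.83 in those labelled wild-type, so Akap4 led in each library.

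Fscb, a calcium-binding protein gene of the sheath with a single exon (ENSMUSG00000043060; chromosome 12, 64471330 to 64474690), had the smallest p of the 10. It stood at 363, 378, 326 and 353 CPM under the knockout label, against 299, 332, 332 and 315 CPM under the wild-type label. Replicates 1, 2 and 4 labelled knockout were above every library labelled wild-type, and replicate 3 lay within their range. The means, 355 ± 21.8 CPM under the knockout label and 319.5 ± 15.8 CPM under the wild-type label, gave a log2 fold change of 0.15 with an interval of 0.03 to 0.27 (unadjusted p = 0.015, limma adjusted p = 0.074). Without replicate 3 labelled knockout it was called, at a log2 fold change of 0.19 (limma adjusted p = 0.031), and DESeq2 called it on all libraries (0.16, adjusted p = 0.044), while over all 18 alternatives its adjusted p lay between 0.031 and 0.21.

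Ropn1 and Ropn1l encode ropporins, small proteins that dock on the anchoring proteins of the sheath as regulatory subunits of protein kinase A do. Ropn1 (ENSMUSG00000022832; chromosome 16, 34649921 to 34678618) stood at 314, 342, 297 and 305 CPM under the knockout label and at 312, 331, 295 and 338 CPM under the wild-type label, a log2 fold change of -0.02 (limma adjusted p = 0.85). Ropn1l (ENSMUSG00000022236; chromosome 15, 31441211 to 31453737) stood at 992, 939, 1006 and 1025 CPM under the knockout label, against 1007, 971, 981 and 1009 CPM under the wild-type label. Its log2 fold change was -0.0032 (limma adjusted p = 0.97), above 0 with median-ratio scaling. For Ropn1 the groups covered nearly the same range, and for Ropn1l the range under the knockout label extended past that under the wild-type label at both ends. Per kilobase of merged exons Ropn1l exceeded Ropn1 4.44 ± 0.414-fold under the knockout label and 4.37 ± 0.259-fold under the wild-type label. The gap was smaller per kilobase of the longest coding transcript, where the means over all 8 libraries were 1036 CPM per kb for Ropn1l and 362 CPM per kb for Ropn1. No stretch of 50 bases in the annotated transcripts of Ropn1, Ropn1l, Akap3 or Akap4, or of any of the 10 genes other than Odf2 (0.734% of its stretches), was found in transcripts of another gene.

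**Figure D3:**
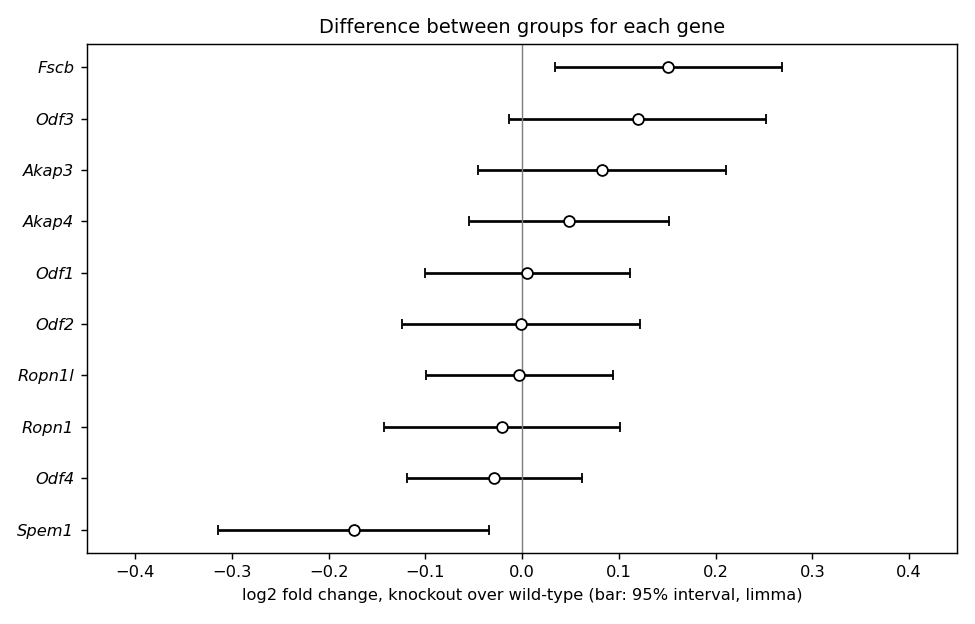
Log2 fold change of each gene, knockout label over wild-type label (circles), with its 95% interval from limma. The intervals of Fscb (0.03 to 0.27) and Spem1 (-0.31 to -0.03) do not include 0 before adjustment for the number of genes tested, and the other 8 do.

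Spem1 encodes a protein of the manchette, the transient microtubule skirt of the elongating spermatid, needed in mice to clear cytoplasm from the head and neck (ENSMUSG00000041165; chromosome 11, 69820876 to 69822180). It stood at 424, 469, 481 and 536 CPM in the libraries labelled knockout, against 568, 529, 551 and 503 CPM in those labelled wild-type. Replicates 1, 2 and 3 labelled knockout lay below every library labelled wild-type, and replicate 4 lay among them. The means were 478 ± 46.2 CPM under the knockout label and 538 ± 27.9 CPM under the wild-type label. The log2 fold change of -0.17, with an interval of -0.31 to -0.03, did not pass the test (unadjusted p = 0.019, limma adjusted p = 0.085). Without replicate 4 labelled knockout it passed, at -0.23 (limma adjusted p = 0.020), and so it did after quantile normalization, at -0.19 (limma adjusted p = 0.037), within a range of 0.020 to 0.21 over the 18 alternatives. The summed CPM of the 7 elongating spermatid markers ranked the 4 libraries labelled knockout as Spem1 did and in the reverse of the order for Odf3, which were picked among the 10 genes for this after their values were seen. Under the wild-type label neither order held. It was 16452, 19245, 20843 and 22282 CPM in replicates 1 to 4 labelled knockout, against 20214, 20526, 19277 and 19812 CPM in those labelled wild-type. Among the 7 markers, Prm2, Tnp2 and H1fnt each ranked the libraries labelled knockout as the sum did, while Prm1, Prm3, Tnp1 and Hils1 did not. The part of these markers in the values of Spem1 and Odf3 was not tested. Spem2, a relative that lies next to Spem1, stood at 466, 446, 488 and 525 CPM under the knockout label and 491, 474, 461 and 462 CPM under the wild-type label, with a log2 fold change of 0.02 (limma adjusted p = 0.80). Per kilobase the ratio of Spem2 to Spem1 was 0.603 to 0.698 in the libraries labelled knockout and 0.532 to 0.583 in those labelled wild-type. This difference was not tested, and for each gene alone the groups overlapped. The ratios of Akap4 to Akap3, Ropn1l to Ropn1 and Odf2 to Odf1 overlapped between the labels.

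The 10 genes did not move together from library to library. Set against the mean of the wild-type label, replicate 1 labelled knockout held both the highest deviation, 0.28 for Odf3, and the lowest, -0.34 for Spem1, on the log2 scale. Akap3 and Fscb were also high in that library, at 0.19 and 0.19, while Odf1, Odf4, Akap4, Ropn1 and Ropn1l were within 0.02 of the wild-type mean. Replicate 4 labelled knockout was the highest of its group for 5 of the 10 genes, among them Odf2 (0.11) and Akap4 (0.12). Under the wild-type label replicate 3 was the lowest for 4 of the 10, down to -0.12 for Odf3. Summed over the 10 genes, the level was 10905, 10752, 11234 and 11633 CPM in the libraries labelled knockout, against 11057, 11129.6, 10902 and 11009 CPM in those labelled wild-type. That is 1.09% to 1.13% of the library's CPM under the knockout label and 1.09% to 1.12% under the wild-type label.

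**Figure D4:**
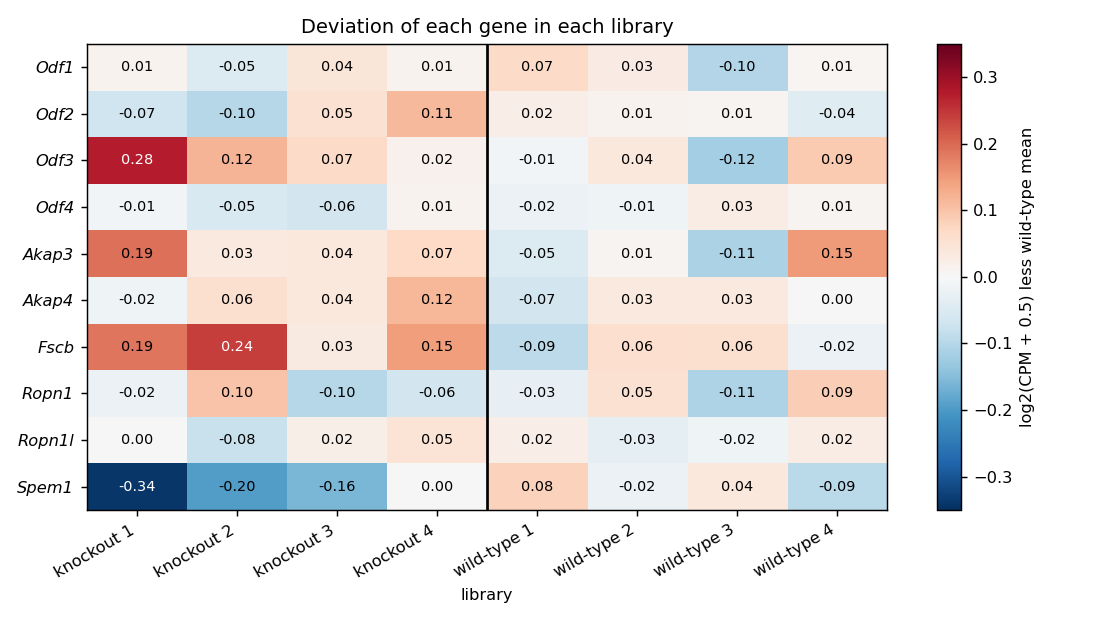
Deviation of log2(CPM + 0.5) from the mean under the wild-type label for each gene (rows) in each library (columns, knockout label left of the line). The extremes, 0.28 for Odf3 and -0.34 for Spem1, stand in the same library, replicate 1 labelled knockout.

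In a list of 45 other genes of the tail's accessory structures, 43 were in the table. Of these, 2 rose and 1 fell (6.98% called, against 16.9% of all tested genes), and their median log2 fold change was 0.02. The groups did not overlap for 6 of the 43, against 20.9% of all tested genes. Among 13 further genes of the fibrous sheath, with its enzymes and anchors, Eno4 rose and Rhpn1 fell. That is 15.4% called, near the 16.9% of all tested genes. Eno4, an enolase of sperm glycolysis, stood at 71.5, 64.9, 65.6 and 69.1 CPM under the knockout label, against 47.1, 50.4, 51.7 and 45.6 CPM under the wild-type label, with a log2 fold change of 0.47 (SE 0.06, limma adjusted p = 6.6e-05). Rhpn1, the gene of rhophilin, a partner of ropporin, stood at 26.7, 29.1, 31.6 and 28.1 CPM under the knockout label, against 37.5, 35.1, 34.5 and 33.8 CPM under the wild-type label, a log2 fold change of -0.28 (SE 0.06, limma adjusted p = 0.0082). For both genes all 4 libraries of one label lay apart from all 4 of the other, and both were called in each of the 18 alternatives.

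Of 8 genes of the mitochondrial sheath, which wraps the midpiece, Armc12 rose (12.5% called, against 16.9% of all tested genes). It had 261, 295, 246 and 258 CPM in the libraries labelled knockout, against 225, 244, 201 and 238 CPM in those labelled wild-type, a log2 fold change of 0.22 with an SE of 0.07 (limma adjusted p = 0.037). The groups did not overlap, but the call was lost in 7 of the 18 alternatives, 5 of which left out 1 library: replicate 1, 2 or 4 labelled knockout, or replicate 1 or 3 labelled wild-type. None of the 8 outer dense fibre genes and partners, 6 genes of head-tail coupling, 3 of the Spem family and its partners or 5 of the annulus, the ring between midpiece and principal piece, was called. The smallest p of each of these roles belonged to Spag4, Hook1, Ranbp17 and Sept12. Spag4, a SUN domain protein known to bind Odf1 in rat, had 338 ± 6.87 CPM under the knockout label and 309.8 ± 21.4 CPM under the wild-type label (limma adjusted p = 0.11). Hook1, a linker of the manchette, had 568 ± 28.3 CPM under the knockout label and 537 ± 29.7 CPM under the wild-type label (limma adjusted p = 0.32). Ranbp17, a transport receptor known to bind Spem1 in mouse, had 117 ± 6.17 CPM under the knockout label and 108 ± 3.77 CPM under the wild-type label (limma adjusted p = 0.12). Sept12, a septin of the annulus, had 309.8 ± 17.3 CPM under the knockout label and 281 ± 16.7 CPM under the wild-type label (limma adjusted p = 0.098).

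**Figure D5:**
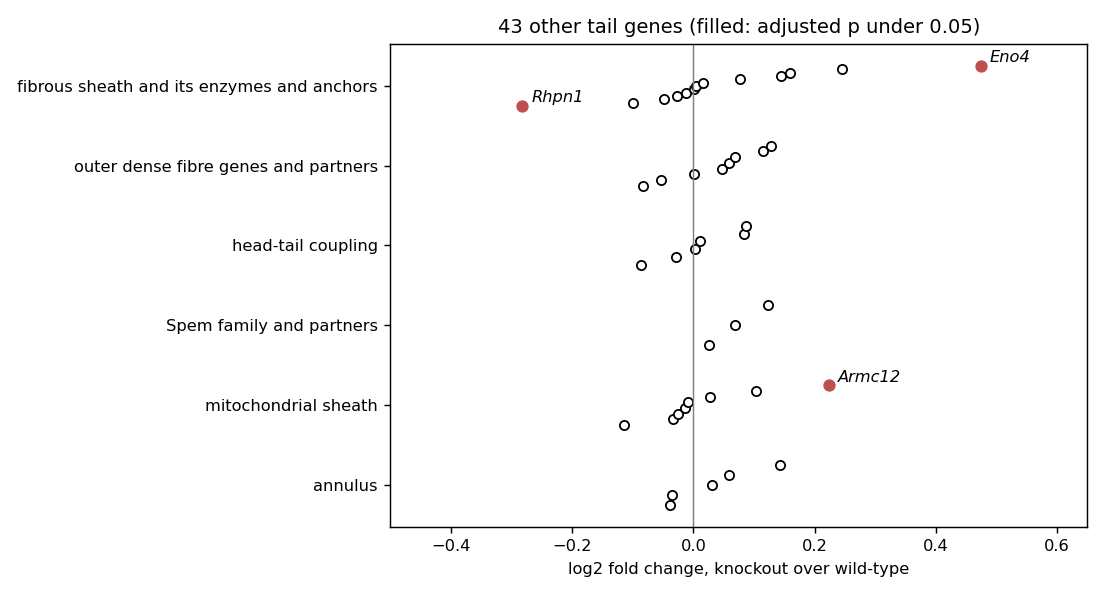
Log2 fold change, knockout label over wild-type label, of 43 other tail genes by role (circles; filled where the limma adjusted p was under 0.05). Eno4 (0.47) and Armc12 (0.22) lie right of 0 and Rhpn1 (-0.28) left of it, and the open circles lie closer to 0 apart from Akap14 (0.25, limma adjusted p = 0.057).

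The genes whose profile over the 8 libraries was most like the mean profile of the 10, by the root mean square difference of log2 values each less its own mean, among 10888 named genes of at least 5 CPM, were Ubfd1 (0.0173), Tssk6 (0.0198), Mapk8 (0.0200), Elf2 (0.0201) and Hnrnph1 (0.0222). None of these 5 was called, and their log2 fold changes were 0.02 to 0.03. Such small changes follow from choosing genes by likeness to that mean profile. Tssk6, a kinase gene of late spermatids, stood at 322 ± 7.27 CPM under the knockout label and 318 ± 2.15 CPM under the wild-type label. Nearest to Fscb were Ndufaf1, Kifap3 and Etf1, with root mean square differences of 0.0313, 0.0331 and 0.0350 and log2 fold changes of 0.11, 0.12 and 0.13, none of which passed the test (limma adjusted p = 0.39, 0.17 and 0.093). They were likewise chosen for likeness to Fscb, so changes near its own follow from the choice.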

How the data were processed

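Per the labels' protocols, TRIzol extraction and DNase treatment of testis RNA came before library preparation with a TruSeq RNA kit. Trimmomatic, Subread, featureCounts and the builds GRCm39 and mm39 are named in the submitters' processing notes. Not given in the sources used here are their versions, the annotation, the strand setting and how multi-mapping reads were handled. The authors deposited a scaled signal per gene, named CPM in the file. Columns summed to between 990244 and 1025489 CPM. All values (100%) were whole multiples, within 0.01, of what 1 read is worth, and gave back the reads used by edgeR and DESeq2. Columns named control and kpn were matched to titles by number, taking control as wild-type. Since the plan assumed unaltered CPM, the unit differs from it, but the planned log-scale test was still used.

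Log values were fitted with lmFit and eBayes (with trend) of limma 3.58.1, run in R 4.3.3, on log2(CPM + 0.5). The fit covered the 22027 genes whose mean reached 0.5 CPM, with Benjamini-Hochberg adjustment over all of them at a threshold of 0.05 and no covariate. The fit was tested on simulated data. Pairs within a group differed beyond sampling noise (chi-square of 4.63 to 11.7 per degree of freedom). Genes were named by a rule: all 10 members, called genes of the list of other tail genes, the smallest p of each role without a call, and the nearest profiles. Members and lists were chosen with earlier results of these data known. Symbols, lengths and gene positions came from GENCODE M21 on GRCm38, another build than the authors', promoters from RefSeq on GRCm38.p6. Odf1 had no entry there, and Odf3l2 and Spem3 of the list were not analysed here. The alternatives, 18 in all, were a pseudocount of 0.1 or 2 CPM, scaling by median ratios, quantile normalization, a filter at 2 CPM or none, limma without its trend, a replicate block, each library left out, edgeR 4.0.16 with TMM and DESeq2 1.42.0.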

Additional observations from a re-analysis of the deposited data

How the results depend on the processing

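The count of the 10 genes called, 0 by limma, was 1 after quantile normalization (Spem1), 1 with DESeq2 (Fscb) and 0 to 1 when 1 library was left out. Directions turned for 4 genes near 0, none of them called under any alternative. Odf2 was at 0.0041 with median-ratio scaling, 0.023 after quantile normalization, 0.0040 with edgeR and 0.0067 with DESeq2, and Ropn1l at 0.0022, 0.000195 and 0.0029 with median-ratio scaling, edgeR and DESeq2 (log2). With each library left out in turn, Odf2 lay between -0.039 and 0.032, Ropn1l between -0.020 and 0.022, Odf1 between -0.029 and 0.028 and Ropn1 between -0.061 and 0.0076. Of the others, without replicate 1 labelled knockout Odf3 was at 0.068 and Akap3 at 0.046, without replicate 3 labelled wild-type Odf3 was at 0.079 and Akap3 at 0.046, and without replicate 4 labelled wild-type Akap3 was at 0.13. Akap4 was at 0.026 without replicate 4 labelled knockout and 0.027 without replicate 1 labelled wild-type, and Odf4 at -0.017 without replicate 3 labelled knockout. After quantile normalization Akap4 was at 0.0072, Odf4 at -0.065 and Ropn1 at -0.052. The cause was not tested. With the replicate number as a block, 0 of the 10 and 3 of the 43 other tail genes were called and 3446 of all genes. Same-numbered libraries did not deviate together over all tested genes (correlation across genes -0.03 to 0.04). A pairing that affects few genes would not show in this correlation. The block changed no call of the 10 genes, Eno4, Rhpn1, Armc12 or Kpna2. Calls of the marker genes and nearest profiles were not run under the alternatives. Counts of all genes called, 3731 by limma, were 2791 to 4073 over the alternatives. Counting error was at most 1.32% for the 10 genes.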
